A study of Mus musculus with 18 samples.

Results

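The cytosolic ribosome builds every protein of the liver cell, and its protein part is encoded by a set of nuclear genes, one for most subunit proteins. They were examined here in mouse livers with the label HPNWT, set against livers with the label EGFP. A gene was taken as a member if its array cluster carried a single gene symbol of the Rpl or Rps series (a number, with a or x as the only suffix) or was Rpsa, Rplp0, Rplp1 or Rplp2, and the brightest cluster stood for a symbol with several. This gave 59 genes from 61 clusters, of 36230 distinct single symbols on the array. They are 32 large-subunit genes, 25 small-subunit genes and the P-stalk genes Rplp0 and Rplp1. Another 17 ribosomal protein symbols, Rplp2 among them, occur only in clusters that name a further gene, mostly a small nucleolar RNA of an intron or a pseudogene. They are not members and are given below as counts and medians, with single values only for genes of the tunnel exit rim.

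The animals were 18 male mice, described in the labels as adult and healthy, with 1 liver array each. The labels put 3 arrays in each of 6 groups, which are HPNWT livers of day 1, of day 2 and of day 4 and, as controls, EGFP livers of the same days. Every animal, controls included, had received an adeno-associated virus (AAV). EGFP is a green fluorescent protein used as the control cargo. The series text describes overexpression of hepsin, a membrane serine protease of hepatocytes encoded by Hpn, directed to the liver. The labels spell out neither HPNWT, nor the promoter of the vectors, nor the mouse strain and exact age, nor the event from which days were counted. The measurement was an Affymetrix Mouse Transcriptome Array 1.0, and levels are the authors' deposited log2 values from robust multi-array averaging (RMA), so that a difference of 1 is a doubling of the signal. Differences are HPNWT minus EGFP at the same day from 1 limma fit over all 18 arrays and all 40161 clusters with a symbol. A gene is said to have risen or fallen where its Benjamini-Hochberg adjusted p over all of them was under 0.05.

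The labelled tissue was checked against its markers, and all 8 hepatocyte markers examined, Alb and Hnf4a among them, lay above 6.16 as a mean of 18 arrays. That value is the 95th percentile of the 5222 negative-control probe sets, averaged over arrays. Hpn itself gave 8.26 ± 0.191 in HPNWT and 8.32 ± 0.0877 in EGFP livers of day 1 (SD, n = 3, limma adjusted p = 0.894). It gave 8.19 ± 0.0251 in HPNWT and 8.27 ± 0.0419 in EGFP livers of day 2 (0.731), and 8.30 ± 0.282 in HPNWT and 8.19 ± 0.107 in EGFP livers of day 4 (0.809), so directions below rest on the labels alone. The median of the negative-control probe sets was lower in HPNWT arrays at day 2, at 2.99 to 3.10 against 3.27 to 3.55 in EGFP arrays, and overlapped at day 1 (2.93 to 3.14 in HPNWT and 3.09 to 3.27 in EGFP arrays) and day 4 (2.89 to 3.20 in HPNWT and 3.06 to 3.25 in EGFP arrays). All 11 lymphocyte and all 8 neutrophil and monocyte markers measured lay at or below 6.16. Across the ribosomal protein genes 2 arrays stood apart from their groups, HPNWT day 1 replicate 3 and HPNWT day 4 replicate 3, and the counts and medians of those days are given with and without them.

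Ribosomal proteins clothe subunits built of RNA. The small subunit reads the messenger RNA and the large subunit joins amino acids and lets the new chain out through a tunnel. Ribosomal proteins are needed in matched amounts, and surplus copies are degraded. Their messenger RNAs are known for a short pyrimidine tract at the very 5′ end, through which the growth-factor-responsive kinase mTORC1 and the RNA-binding protein LARP1 set their translation. In liver, ribosome production goes up when hepatocytes prepare to divide. An array reads only the amount of messenger RNA, not its translation.

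The pyrimidine tract can be looked for in the start regions that RefSeq gives for mouse build GRCm38.p6, of which 42 of the 59 members have at least 1. Windows of 80 bases, with 60 bases before the annotated start and 20 from it on, are shown for the called genes that have a start region there (Rps6, Rps21 and Rpl39), for Rpsa, the largest day 1 difference after Rpl3, and for Rpl22, the lowest difference of day 2. They run 5′ to 3′ on the gene's own strand, and capitals mark each unbroken run of at least 8 C or T.
Rps6, chr4:86857348-86857427, minus strand: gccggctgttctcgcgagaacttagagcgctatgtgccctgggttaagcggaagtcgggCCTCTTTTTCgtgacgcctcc
Rps21, chr2:180257389-180257468, plus strand: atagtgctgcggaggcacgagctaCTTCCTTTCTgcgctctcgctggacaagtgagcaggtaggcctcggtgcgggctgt
Rpsa, chr9:120127706-120127785, plus strand: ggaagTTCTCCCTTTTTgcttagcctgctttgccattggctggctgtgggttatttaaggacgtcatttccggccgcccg
Rpl39, chrX:37085203-37085282, minus strand: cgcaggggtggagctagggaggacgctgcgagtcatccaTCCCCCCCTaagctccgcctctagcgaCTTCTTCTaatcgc
Rpl22, chr4:152325666-152325745, plus strand: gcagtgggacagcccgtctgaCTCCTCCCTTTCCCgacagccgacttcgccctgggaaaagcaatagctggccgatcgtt
Of these only the run of Rps6 spans the annotated start, from base −1 to base 9, where base 1 is the annotated start and no base is numbered 0. The second run of Rpl39 lies just inside the transcript (bases 7 to 14), and the runs of Rps21 (−36 to −27), Rpsa (−55 to −44) and Rpl22 (−39 to −26) lie before the start used for the window shown. Rps21 and Rpl22 each have another annotated start, further upstream, whose own window holds no such run. Counted from that upstream start, the printed runs of both genes lie after it, beyond the end of its window.

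Over all 51 annotated starts of the 42 members, 24 (47.1%) had at least 8 C or T in a row within 30 bases either side of the start, on the gene's strand, against 22.9% of all 32851 start regions in the table. The letters CCGGAAGT, the core bound by ETS factors, occurred on either strand in 10 of the 51 regions of 300 bases (19.6%, against 3.89% of all). AAGATGGC, a YY1 core, occurred in 5 (9.80%, against 2.75%), and CACGTG, the E-box that Myc can bind, in 4 (7.84%, against 7.15%). These shares describe letters in the windows and no binding.

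At day 1 the ribosomal protein genes as a set were a little higher in HPNWT than in EGFP livers. The members' median deviation from each gene's mean over 18 arrays averaged 0.049, 0.057 and 0.033 log2 in HPNWT livers of day 1, day 2 and day 4. In EGFP livers it averaged −0.108, −0.034 and −0.004, so the EGFP livers of day 1 were the lowest group and HPNWT livers varied little between days. Each of the 59 differences was above 0, against 52.2% of all clusters tested. Their median was 0.17 log2, against a median of 0.01 over all clusters and 0.03 over the 8535 single symbols brighter than 6.16. Few single genes passed the test: 3 rose (Rpl3, Rps21 and Rps6) and none fell, where 4.59% of all clusters passed (2.97% higher and 1.62% lower). At an unadjusted p under 0.05 stood 23 members, all higher, against 8.98% of all clusters. Bright genes passed more often than all clusters did. Of the 43 members brighter than 6.16, 3 rose, none fell and 19 stood at an unadjusted p under 0.05. Of the 8535 single symbols that bright, 744 rose, 358 fell and 3015 stood at an unadjusted p under 0.05 in either direction. The counts of single genes that passed are therefore not read as a result about the members. The groups did not overlap in 14 members, each time with HPNWT above, against 18.3% of all clusters in either direction (4034 of the 40161 with HPNWT above). Among the 43 brighter members HPNWT was wholly above in 10. Among the 8535 single symbols that bright it was wholly above in 1740 and wholly below in 1171. HPNWT arrays wholly below the EGFP arrays were found for no member, against 8.21% of all clusters. The small-subunit genes had a median difference of 0.21 with 14 of 25 at an unadjusted p under 0.05, and the large-subunit genes one of 0.14 with 8 of 32. The difference between the subunits was not tested.

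**Figure D1:**
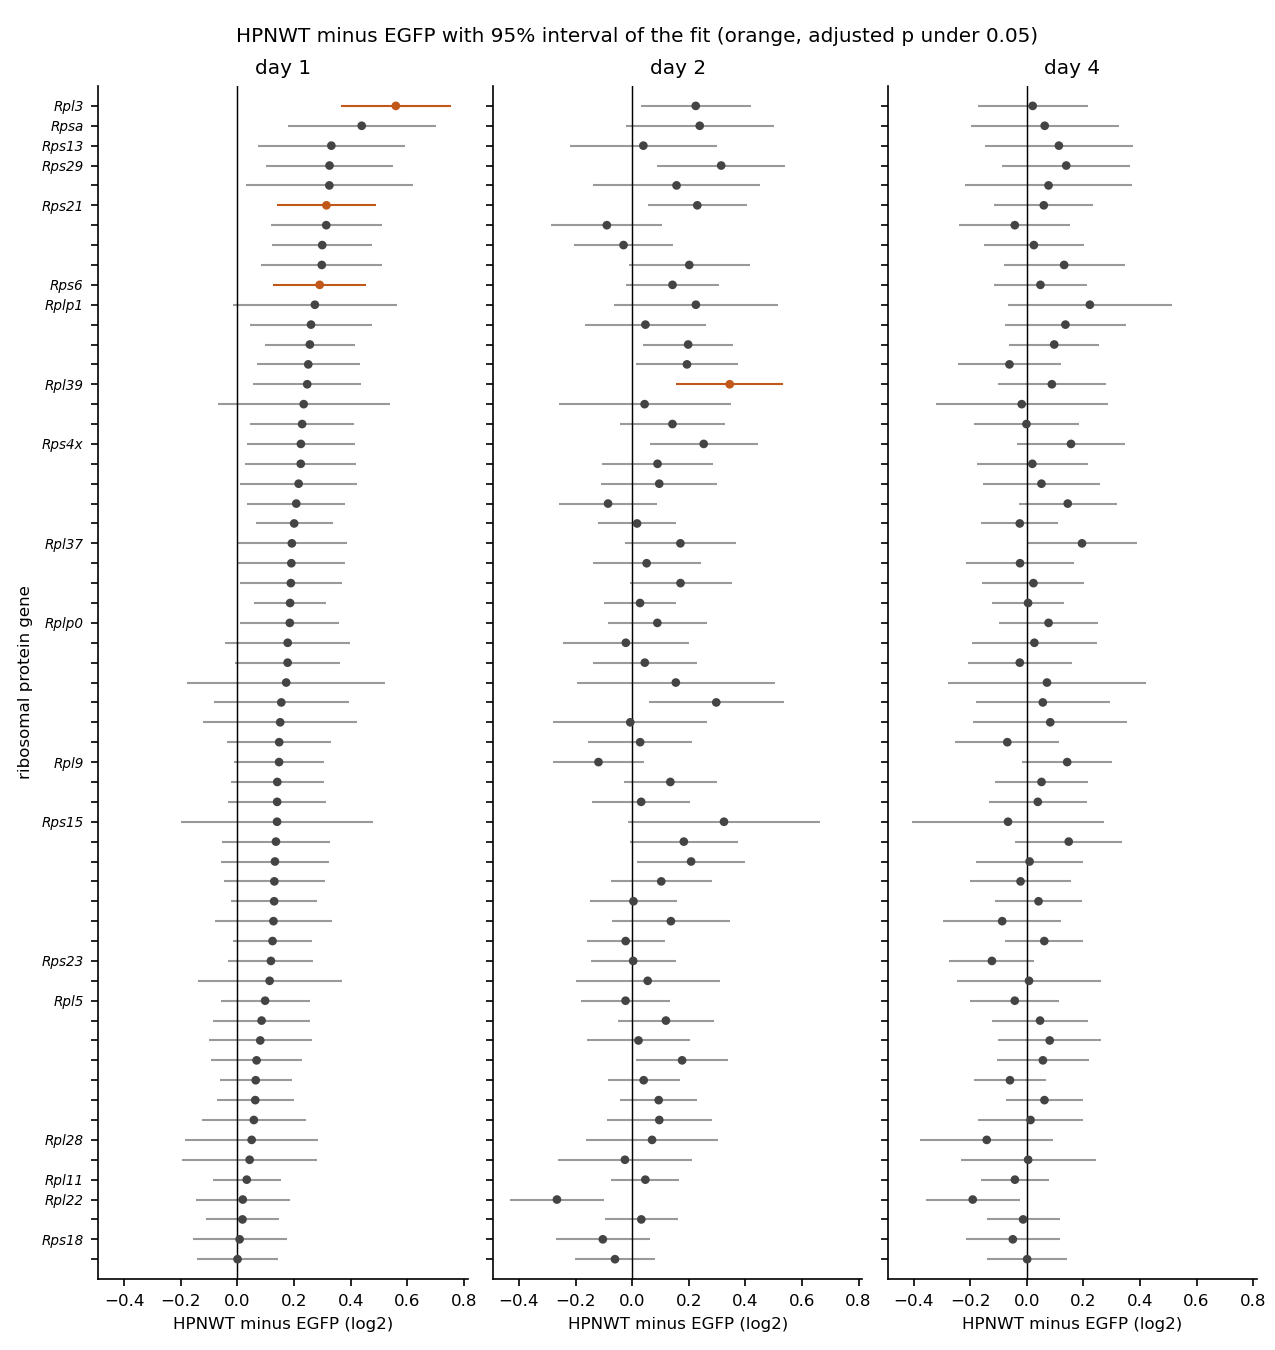
HPNWT minus EGFP difference (x axis, log2) of each of the 59 ribosomal protein genes (y axis, ordered by the day 1 difference, with the names of genes picked out by call or rank) at day 1, day 2 and day 4, with the 95% interval of the limma fit. Orange marks the genes with an adjusted p under 0.05 (3 at day 1 and 1 at day 2), and every day 1 point lies at or right of 0.

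Rpl3 (cluster TC1500001896.mm.1), a large-subunit protein that reaches towards the peptidyl transferase centre, had the largest difference. Its level was 9.58, 9.53 and 9.20 in the HPNWT livers of day 1, against 8.96, 8.80 and 8.87 in the EGFP livers. All HPNWT arrays were higher than all EGFP arrays, with replicate 3 the lowest of the HPNWT arrays. Rpl3 rose by 0.56 log2 (SE 0.0918, 1.47-fold, limma adjusted p = 0.00205). At day 2 its arrays again did not overlap, at 9.38, 9.30 and 9.34 in HPNWT and 9.12, 8.99 and 9.23 in EGFP livers (difference 0.22, adjusted p = 0.179). At day 4 they did, at 9.22, 9.08 and 9.27 in HPNWT and 9.18, 9.18 and 9.15 in EGFP livers (0.02, adjusted p = 0.967). The array also carries clusters for the processed pseudogenes Rpl3-ps1 and Rpl3-ps2, which rose at day 1 by 0.70 (SE 0.14, adjusted p = 0.00686) and 0.59 (SE 0.10, adjusted p = 0.00294). Near-identical copies can share a transcript's signal on an array, so the Rpl3 gene and its copies cannot be told apart here.

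Rps21 (TC0200002785.mm.1) and Rps6 (TC0400002986.mm.1) encode small-subunit proteins. Rps21 is known from yeast to take part in maturation of the small subunit's RNA, and Rps6 is the substrate that gave the S6 kinases of the mTORC1 pathway their name. Rps21 had levels of 7.01, 7.02 and 6.71 in HPNWT and 6.57, 6.63 and 6.60 in EGFP livers at day 1, and rose by 0.31 log2 (SE 0.0829, 1.24-fold, limma adjusted p = 0.0396). Rps6 had 8.23, 8.48 and 8.29 in HPNWT and 8.11, 7.95 and 8.08 in EGFP livers, and rose by 0.29 (SE 0.0775, 1.22-fold, adjusted p = 0.0419). Neither gene's groups overlapped. Both calls are near the threshold: leaving out 1 of the 18 arrays in turn lost Rps21 in 10 of 18 fits (adjusted p up to 0.184) and Rps6 in 12 of 18 (up to 0.213), and Rpl3 in none (up to 0.0168). With the 6 arrays of day 1 fitted alone, none of the 3 passed (adjusted p = 0.0519 for Rpl3, 0.191 for Rps21 and 0.200 for Rps6). The array also holds 4 pseudogene clusters named after Rps6. Of these Rps6-ps3 rose at day 1 by 0.37 (SE 0.0863, limma adjusted p = 0.0198). Rps6-ps2 had 0.34 at day 1 (adjusted p = 0.0683) and rose at day 2 by 0.43 (adjusted p = 0.0190). The Rps6 gene and its copies cannot be told apart here.

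Rps21 kept separate groups at day 2, at 6.88, 6.98 and 6.99 in HPNWT and 6.69, 6.62 and 6.84 in EGFP livers (difference 0.23, adjusted p = 0.123). Its groups overlapped at day 4, at 6.69, 6.79 and 6.83 in HPNWT and 6.69, 6.77 and 6.68 in EGFP livers (0.06, adjusted p = 0.858). For Rps6 the day 2 levels were 8.22, 8.29 and 8.27 in HPNWT and 8.11, 8.04 and 8.21 in EGFP livers (0.14, adjusted p = 0.325), again without overlap. At day 4 they were 8.22, 8.27 and 8.07 in HPNWT and 8.10, 8.16 and 8.15 in EGFP livers (0.05, adjusted p = 0.883), with overlap.

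Rpsa (TC0900001595.mm.1), a small-subunit protein also described as a laminin receptor, and Rps13, a small-subunit protein of the platform, had the next largest day 1 differences without passing the test. Rpsa stood at 9.08, 8.94 and 8.55 in HPNWT and 8.59, 8.38 and 8.28 in EGFP livers (difference 0.44, SE 0.12, limma adjusted p = 0.0535). Its replicate 3 of HPNWT lay just below the highest EGFP array. Rps13 stood at 7.43, 7.41 and 7.08 in HPNWT and 6.95, 6.90 and 7.08 in EGFP livers (0.33, SE 0.12, adjusted p = 0.164), with the same array at the level of the highest EGFP array. Rpsa was separate at day 2, at 8.81, 8.84 and 8.81 in HPNWT and 8.62, 8.45 and 8.68 in EGFP livers (0.24, adjusted p = 0.297).

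That array, HPNWT day 1 replicate 3, stood apart from the other HPNWT livers of its day across the set. Measured against each gene's mean over all 18 arrays, the members' median deviation was 0.11, 0.14 and −0.10 log2 in the HPNWT livers of day 1, against −0.06, −0.15 and −0.12 in the EGFP livers. In the HPNWT arrays 44, 58 and 5 of the 59 members were above their own mean, and in the EGFP arrays 17, 0 and 5. Replicate 3 of HPNWT thus lay within the range of the EGFP livers of that day and the other HPNWT arrays above it. Set against the EGFP arrays gene by gene, the HPNWT arrays exceeded all 3 of them in 51, 55 and 15 members.

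**Figure D2:**
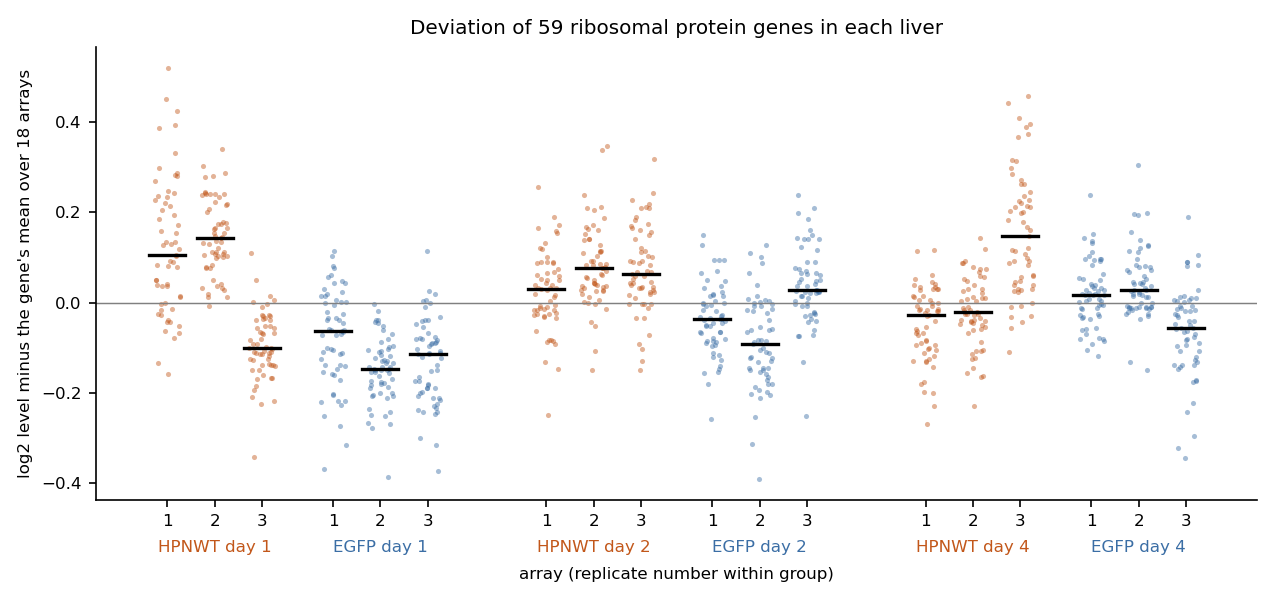
Deviation of each of the 59 ribosomal protein genes from its own mean over 18 arrays (y axis, log2) in every array (x axis, by group and replicate, HPNWT left of EGFP at each day); bars are medians. HPNWT day 1 replicate 3 (median −0.10) lies with the EGFP arrays of its day, and HPNWT day 4 replicate 3 (0.15) above the other HPNWT arrays of its day (−0.03 and −0.02).

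HPNWT day 1 replicate 3 was left out after the members were seen to be low in it, which by itself raises their differences. The shares of all clusters given beside the counts carry no such selection. Without that array 20 members passed at day 1, all higher (9 large-subunit and 11 small-subunit genes, where 4.97% of all clusters were called higher and 2.48% lower). The median difference was then 0.25, again with 59 of 59 above 0 (52.6% of all clusters). The HPNWT arrays that were left both lay above all EGFP arrays in 50 members, against 19.3% of all clusters. Besides the 3 genes above they included Rpsa (0.59, 0.00447), Rps29 (0.45, 0.0110), Rpl15 (0.42, 0.0112), Rpl35 (0.35, 0.0115), Rpl4, Rpl27, Rps7, Rps25, Rpl8, Rpl39, Rps27a, Rpl9, Rps13, Rps20 and Rpl37. Leaving out any of the other arrays gave 1 to 9 calls, with 9 without HPNWT day 4 replicate 3 and 1 without any of EGFP day 1 replicates 2 and 3, EGFP day 2 replicate 1, EGFP day 4 replicate 1, HPNWT day 1 replicate 2 and HPNWT day 2 replicate 2. The shares of all clusters called in those fits are not given. The lowest median, 0.13, was that without HPNWT day 1 replicate 2.

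At the other end, Rpl35a, Rps18 and Rps19 had day 1 differences of 0.00, 0.01 and 0.02, chosen for naming after their values were seen. All lay below 6.16, as did 16 of the 59 members. The 43 brighter members had a median difference of 0.19 and the 16 dimmer ones one of 0.13. Rpl5 and Rpl11, which with the 5S ribosomal RNA form the particle that binds Mdm2 and links ribosome assembly to p53, also had small differences. Rpl5 gave 7.39, 7.69 and 7.48 in HPNWT and 7.39, 7.42 and 7.46 in EGFP livers at day 1 (0.10, SE 0.0741, limma adjusted p = 0.625). Rpl11 gave 5.32, 5.38 and 5.38 in HPNWT and 5.41, 5.30 and 5.26 in EGFP livers (0.03, SE 0.0566, adjusted p = 0.880). Both groups overlapped, and 95% intervals ran from −0.06 to 0.25 for Rpl5 and from −0.09 to 0.15 for Rpl11. At day 2 and day 4 the differences were −0.02 and −0.04 for Rpl5 and 0.05 and −0.04 for Rpl11, none of them called.

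The P-stalk is the flexible arm of the large subunit that recruits the elongation factors, and Rplp0 is its base and Rplp1 one of its tips. Rplp0 had 9.45, 9.34 and 9.20 in HPNWT and 9.24, 9.11 and 9.08 in EGFP livers at day 1 (difference 0.185, SE 0.0825, limma adjusted p = 0.280). Rplp1 had 10.34, 10.15 and 9.89 in HPNWT and 9.84, 9.90 and 9.82 in EGFP livers (0.27, SE 0.14, adjusted p = 0.354). Replicate 3 was again the lowest HPNWT array of both genes, and the groups overlapped in both. Rps27a, made as a fusion with ubiquitin, had a difference of 0.30 (adjusted p = 0.0508). Of the 13 measured members whose human counterparts are named as mutated in Diamond-Blackfan anaemia, an inherited failure of red cell production, none passed, and their median was 0.13.

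**Figure D3:**
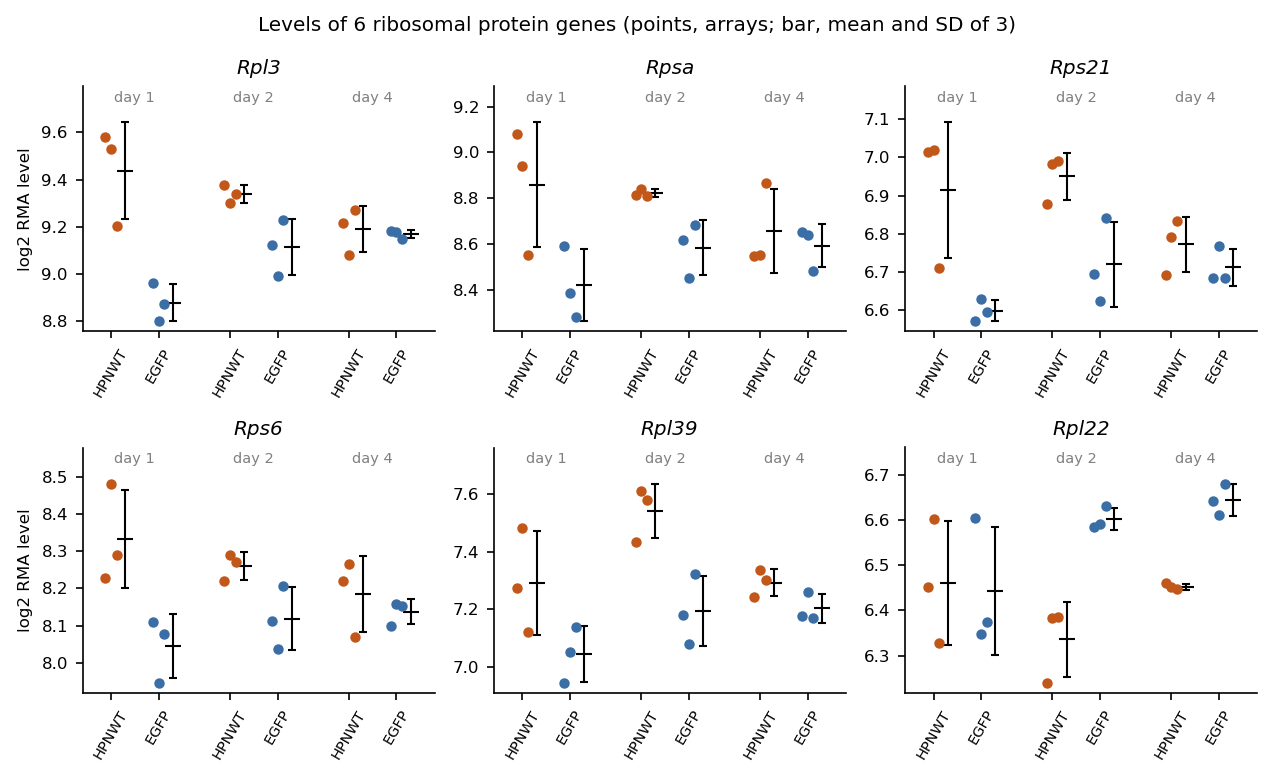
Levels (y axis, log2 RMA value) of 6 ribosomal protein genes by label and day (x axis); points are single arrays, and the bars beside them give mean and SD of 3. Rpl3, Rps21 and Rps6 show separate groups at day 1 and Rpl39 at day 2, while Rpl22 is lower in HPNWT than in EGFP arrays at day 2 and day 4 without passing the test.

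At day 2 the shift of the set was smaller and less uniform. Of the 59 members 47 had a difference above 0, against 62.9% of all clusters, and the median was 0.09 log2, against 0.05 over all clusters. Among the 43 members brighter than 6.16, 38 were above 0 with a median of 0.12, where 47.3% of the 8535 single symbols that bright were above 0 and their median was −0.02. Only Rpl39 rose and none fell, where 5.67% of all clusters passed (2.16% higher and 3.51% lower). At an unadjusted p under 0.05 stood 11 members, against 19.9% of all clusters, and of these 10 were higher, against 10.4%, and Rpl22 was lower. The groups did not overlap in 24 members, against 34.3% of all clusters in either direction, and in 2 of them (Rpl22 and Rpl9) HPNWT was below, against 13.1%. The members' median deviations were 0.03, 0.08 and 0.06 in the HPNWT arrays and −0.04, −0.09 and 0.03 in the EGFP arrays.

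Rpl39 (TC0X00002057.mm.1) encodes a very small protein in the wall of the exit tunnel. Its levels were 7.43, 7.61 and 7.58 in the HPNWT livers of day 2, against 7.18, 7.08 and 7.32 in the EGFP livers, with no overlap. It rose by 0.34 log2 (SE 0.0896, 1.27-fold, limma adjusted p = 0.0323). With each array's negative-control median as a covariate the difference was 0.24 (adjusted p = 0.695), and with arrays centred on their medians 0.29 (0.151). It no longer passed without any of EGFP day 2 replicates 1 and 2 and HPNWT day 2 replicates 2 and 3 (adjusted p up to 0.16). The pseudogene Rpl39-ps rose too, by 0.43 (SE 0.11, adjusted p = 0.0251), and the gene and its copy cannot be told apart here. Rpl39 had 7.28, 7.48 and 7.12 in HPNWT and 6.95, 7.05 and 7.14 in EGFP livers at day 1 (0.25, adjusted p = 0.154), and 7.24, 7.33 and 7.30 in HPNWT and 7.18, 7.26 and 7.17 in EGFP livers at day 4 (0.09, adjusted p = 0.789). The 7 members at the tunnel exit rim, Rpl39 among them, had a median difference of 0.19 at day 2. Of these 6 were above 0, against 62.9% of all clusters. The other listed rim genes lie in clusters with several symbols, and at day 2 none of them was called. Rpl23a had 0.07, Rpl26 −0.03 and Rpl24 −0.14 there.

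Rps15 and Rps29 of the small-subunit head had the next largest day 2 differences, and neither passed the test. Rps15 gave 7.80, 7.76 and 7.52 in HPNWT and 7.41, 7.28 and 7.42 in EGFP livers (0.32, SE 0.16, limma adjusted p = 0.273). Rps29, a zinc-binding protein, gave 9.29, 9.20 and 9.12 in HPNWT and 8.88, 8.83 and 8.96 in EGFP livers (0.31, SE 0.11, adjusted p = 0.101). The groups were separate for both. Rps29 had also been separate at day 1, at 9.33, 9.28 and 8.93 in HPNWT and 8.90, 8.83 and 8.83 in EGFP livers (0.33, adjusted p = 0.104).

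Rpl22 (TC0400002022.mm.1), an RNA-binding large-subunit protein that in mouse holds down its paralogue Rpl22l1, had the lowest difference of day 2 and of day 4. At day 2 its levels were 6.24, 6.38 and 6.39 in HPNWT and 6.58, 6.59 and 6.63 in EGFP livers, and at day 4 they were 6.46, 6.45 and 6.45 in HPNWT and 6.64, 6.61 and 6.68 in EGFP livers. All HPNWT arrays lay below all EGFP arrays at both days. The differences were −0.27 (SE 0.0787, limma adjusted p = 0.0602) and −0.19 (SE 0.0787, adjusted p = 0.313), so neither passed. At day 1 the groups overlapped, at 6.45, 6.60 and 6.33 in HPNWT and 6.61, 6.35 and 6.38 in EGFP livers (0.02, adjusted p = 0.958). Rpl22l1 was dim at day 1 (4.38 ± 0.262 in HPNWT livers and 4.09 ± 0.0992 in EGFP livers, SD, n = 3), and its differences of signal were 0.29, 0.26 and 0.21 at day 1, day 2 and day 4, none called (adjusted p = 0.212, 0.211 and 0.508). Rpl22 passed at day 2 in 4 of the 18 fits that left out 1 array, and when its day's 6 arrays were fitted alone (adjusted p = 0.0386).

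The next lowest day 2 differences were those of Rpl9, at the base of the stalk, and Rps18, in the small-subunit head. Both genes are dim. Rpl9 read 5.49, 5.55 and 5.59 in HPNWT and 5.68, 5.62 and 5.70 in EGFP livers (−0.12, limma adjusted p = 0.400), without overlap, and Rps18 read 5.52, 5.63 and 5.60 in HPNWT and 5.60, 5.69 and 5.76 in EGFP livers (−0.10, adjusted p = 0.485), with overlap. Rpl9 was the other way at day 4, at 5.61, 5.64 and 5.76 in HPNWT and 5.54, 5.54 and 5.49 in EGFP livers (0.14, adjusted p = 0.489).

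At day 4 no ribosomal protein gene passed in limma, where 2.21% of all clusters did (1.54% higher and 0.670% lower). At an unadjusted p under 0.05 stood 2 members (Rpl37 higher and Rpl22 lower), against 12.2% of all clusters. The median difference was 0.03 log2, against 0.01 over all clusters, and 40 of 59 were above 0, against 52.2%. The groups did not overlap in 6 members, against 15.6% of all clusters in either direction, and in 2 of them (Rps23 and Rpl22) HPNWT was below, against 5.70%. The members' 95% intervals reached at most 0.51 upward and −0.40 downward.

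The small upward median of day 4 rested on 1 array. The members' median deviations were −0.03, −0.02 and 0.15 in the HPNWT livers, against 0.02, 0.03 and −0.06 in the EGFP livers, so that HPNWT day 4 replicate 3 lay above all others of its day. It too was picked for the members' own values, so leaving it out by itself lowers their differences. Without it the median difference was −0.02 and 22 of the 59 members were above 0, against 57.1% of all clusters. Then 1 member passed, since Rpl28 was lower (−0.31, limma adjusted p = 0.0489), where 1.35% of all clusters were higher and 1.09% lower. In 6 members the HPNWT arrays that were left lay above all EGFP arrays, against 19.8% of all clusters. The same array stood apart in markers of other liver cells. The mean level of 9 stellate cell and fibroblast markers was 6.48, 6.45 and 7.12 in the HPNWT livers of day 4, against 6.46, 6.34 and 6.38 in the EGFP livers, with Acta2, Col1a2, Col3a1, Des and Pdgfrb at or below 6.16 on average. That of 8 sinusoidal endothelial markers was 7.22, 7.20 and 7.73 in HPNWT livers, against 7.20, 7.29 and 7.16 in EGFP livers. The part of those cells in the members' values was not tested. In bulk tissue, fewer cells of a type and less RNA per cell cannot be told apart.

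Rplp1, Rpl37 and Rps4x had the largest day 4 differences, and none passed. Rplp1 had 9.87, 9.97 and 10.47 in HPNWT and 9.93, 9.996 and 9.71 in EGFP livers (0.22, SE 0.14, limma adjusted p = 0.580), with replicate 3 alone above the EGFP livers. Rpl37, a zinc-binding large-subunit protein, had 8.69, 8.77 and 8.85 in HPNWT and 8.61, 8.71 and 8.41 in EGFP livers (0.20, adjusted p = 0.409). For the X-linked Rps4x the levels were 7.25, 7.04 and 7.25 in HPNWT and 7.10, 6.98 and 6.99 in EGFP livers (0.16, adjusted p = 0.545). The groups of both overlapped.

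Rpl28, a large-subunit protein, and Rps23, which lies at the decoding centre, were the lowest after Rpl22. Rpl28 gave 9.74, 9.78 and 10.28 in HPNWT and 10.14, 10.15 and 9.93 in EGFP livers at day 4 (−0.14, SE 0.11, limma adjusted p = 0.702), with HPNWT replicate 3 above all EGFP arrays and the other HPNWT arrays below them. Rps23 gave 9.61, 9.69 and 9.77 in HPNWT and 9.78, 9.82 and 9.84 in EGFP livers (−0.12, SE 0.0709, adjusted p = 0.544), without overlap. Rplp0 (0.08) and Rpsa (0.06) had small positive differences, which were −0.01 and −0.04 without HPNWT day 4 replicate 3.

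Tests of the difference between days called no member in limma. For day 4 minus day 1 the median difference of effects was −0.15 log2, 55 of the 59 were not above 0, and 10 stood at an unadjusted p under 0.05 (0.0946% of all clusters passed after adjustment and 5.72% before). Rpl3 had the value −0.54 (SE 0.13, adjusted p = 0.180). For day 2 minus day 1 the median was −0.09 with 6 at an unadjusted p under 0.05 (0.00% and 5.47% of all clusters), and for day 4 minus day 2 it was −0.07 with 1 (0.00498% and 5.95%). The day 1 shift is therefore not shown to differ from that of the later days for any single member.

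Within each label the moderated F-test across days called no member either, in EGFP livers (0.00% of all clusters passed, and 8 members against 4.04% of clusters at an unadjusted p under 0.05) or in HPNWT livers (0.640% passed, and 3 members against 9.28%). EGFP livers of day 4 against day 1 had 58 of 59 members above 0 with a median of 0.11 log2 (50.4% of all clusters above 0), and 11 at an unadjusted p under 0.05 (2.27% of all clusters). EGFP livers of day 2 against day 1 had 50 above 0 with a median of 0.10 (39.7% of all clusters), and 8 at an unadjusted p under 0.05 (5.54%). HPNWT livers of day 4 against day 1 had 18 of 59 above 0 with a median of −0.03 (48.7% of all clusters), and 1 (Rpl3, lower at day 4) at an unadjusted p under 0.05 (9.20%). The day 1 shift and these EGFP changes all use the 3 EGFP arrays of day 1, in which the members were low, so they are not independent.

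The authors' deposited table gives its own comparison of HPNWT with control livers at each day, on a scale of its own. At a false discovery rate under 0.05 it lists 9 of the 59 members at day 1, all higher, where 5.44% of clusters pass. Its signed folds there are 2.74 for Rpl3, 2.11 for Rpsa, 1.77 for Rps29, 1.51 for Rps21, 1.47 for Rps25, 1.40 for Rpl4, 1.39 for Rpl27, 1.33 for Rps27a and 1.31 for Rps6 in the authors' deposited table. Rps25 and Rpl27 lie under 6.16 in the value table. At day 2 it lists 4 higher, with 1.68 for Rpl39, 1.66 for Rpl29, 1.55 for Rps29 and 1.30 for Rpl27 in the authors' deposited table, where 5.98% of clusters pass. At day 4 the authors' deposited table lists none, where 2.28% of clusters pass.

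Genes around the ribosome were examined as lists, whose counts are read against the shares of all clusters called. The 17 ribosomal protein clusters with several symbols had 17 of 17 differences above 0 at day 1, a median of 0.16 and 1 rise. Their medians were −0.03 at day 2 and 0.00 at day 4. Of 231 ribosomal protein pseudogene clusters 29 rose and none fell at day 1 (median 0.13, against 2.97% of all clusters higher). At day 2, 5 rose (median 0.15), which is 2.16% of the list, the same share as over all clusters, and none changed at day 4. For 41 of the 59 members the array holds at least 1 pseudogene cluster of the same name. Among 13 measured paralogues and related proteins, Rpl36al (0.46, limma adjusted p = 0.0150) and Rpl7l1 (0.39, adjusted p = 0.0447) rose at day 1. Fau, made as a fusion with a ubiquitin-like protein, had 0.15 and did not pass.

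**Figure D4:**
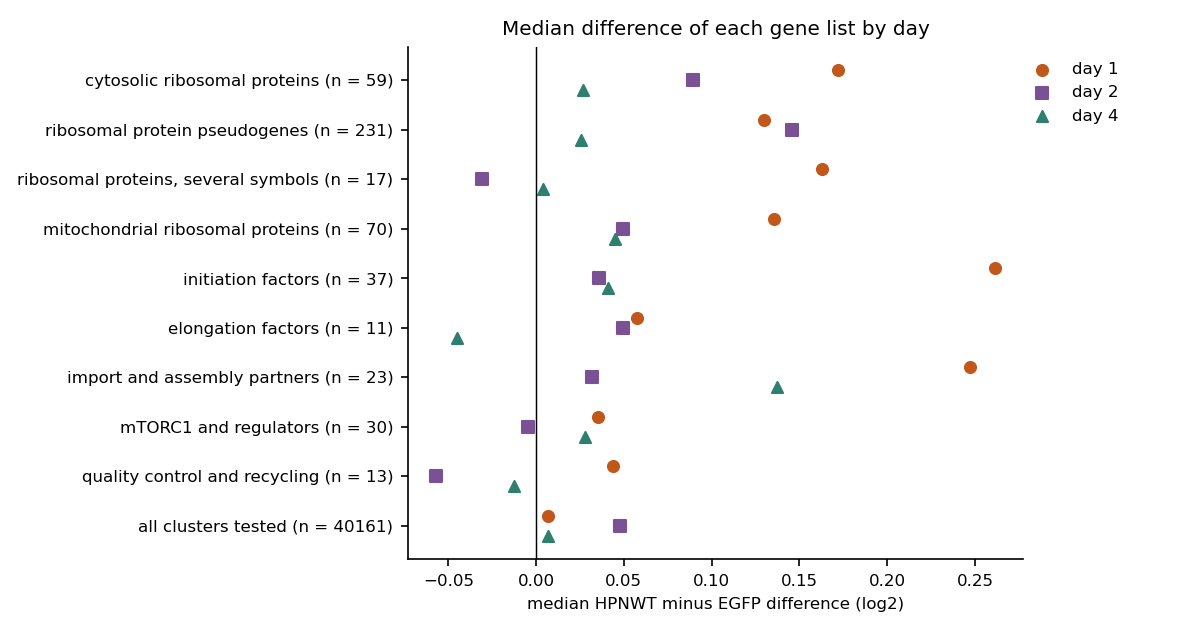
Median HPNWT minus EGFP difference (x axis, log2) of the ribosomal protein genes, of the other gene lists and of all 40161 clusters tested (y axis, n in brackets) at day 1, day 2 and day 4. At day 1 the median is 0.17 for the ribosomal proteins, 0.26 for initiation factors, 0.25 for import and assembly partners and 0.01 for all clusters.

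Initiation factors bring the subunits to the messenger RNA. Of 37 measured, 11 rose and 1 fell at day 1, against 2.97% and 1.62% of all clusters, with a median of 0.26 log2. Eif1a, which helps scan for the start codon, rose at all 3 days, by 0.85 (SE 0.12, limma adjusted p = 0.000638), 0.59 (0.00869) and 0.50 (0.0392). Eif4a1, the RNA helicase of the cap-binding complex, rose by 0.41 (0.0057), Eif3b by 0.41 (0.00965) and Eif2b4 by 0.37 (0.00919) at day 1. Eif4b, the partner of that helicase and an S6 kinase substrate, fell by 0.36 at day 1 (0.0145) and by 0.38 at day 2 (0.0122). Of 11 elongation factors only Eef1g rose at day 1 (0.33, adjusted p = 0.0252). Eef1a1 and Eef2, whose mRNAs share the pyrimidine tract, had 0.02 and −0.04 and did not pass.

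Of 23 measured partners that import or assemble ribosomal proteins, 7 rose and none fell at day 1 (median 0.25, against 2.97% of all clusters higher). The assembly factors Rpf2, which brings in the Rpl5 and Rpl11 particle, Ltv1, which acts on the small subunit, and Tsr1 rose by 0.73 (SE 0.11, limma adjusted p = 0.000817), 0.67 (SE 0.093, 0.000597) and 0.54 (SE 0.0948, 0.0033). Bccip rose by 0.31 (SE 0.06, 0.0064). At day 2 and day 4 none of the list was called. Of 70 mitochondrial ribosomal protein genes 8 rose and none fell at day 1 (median 0.14, against the same 2.97%), among them Mrpl50 (0.59, adjusted p = 0.00468), and only Mrps28 rose at day 2 (0.39, adjusted p = 0.0222).

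Among 30 genes of mTORC1 and its regulators, Rraga, a GTPase that recruits mTORC1 to lysosomes, rose by 0.42 (limma adjusted p = 0.0292) and Tbc1d7, a subunit of the inhibitory TSC complex, by 0.58 (0.0194) at day 1. Deptor, an inhibitor bound to the kinase, fell by 0.51 at day 1 (0.00254) and by 0.32 at day 2 (0.0347). Rps6kb1, which encodes an S6 kinase, fell by 0.40 at day 2 (0.0147). Mtor had 0.35, 0.29 and 0.31, and Larp1 had 0.06, −0.08 and −0.29 at day 1, day 2 and day 4, none called. Myc, a transcription factor that drives ribosome production, had −1.04, −0.69 and 0.74 with an SE of 0.56 and was not called. None of 13 ribosome quality control genes and none of 9 other genes of the pyrimidine-tract and small nucleolar RNA host list passed at any day.

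Markers of liver cell types were set beside the members' values, as the mean level of each list in each array. Hepatocyte markers stood at 11.78, 11.78 and 11.99 in the HPNWT livers of day 1, against 11.82, 11.89 and 11.91 in the EGFP livers. HPNWT replicate 3, in which the members were low, was thus the highest array of the day, and replicates 1 and 2, in which the members were high, were the lowest. Of the 8 hepatocyte markers only Apoa1 was called, higher at day 1 (0.30, limma adjusted p = 0.0130) and day 2 (0.35, 0.00500).

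The 6 cholangiocyte markers, of which Cftr, Epcam, Krt19 and Krt7 lay at or below 6.16, had means of 4.998, 5.011 and 4.817 in HPNWT livers of day 1, against 4.729, 4.85 and 4.773 in EGFP livers. As among the members, HPNWT replicate 3 was the lowest of its group and lay within the EGFP range. Their differences were above 0 in 5 of 6 at day 1 (median 0.06 log2), 6 of 6 at day 2 (0.15) and 6 of 6 at day 4 (0.25), and Sox9 was called at day 2 (0.93, limma adjusted p = 0.0214). Stellate cell and fibroblast markers had medians of −0.10, −0.01 and 0.25 at day 1, day 2 and day 4, and Reln was called higher at day 2 (0.48, adjusted p = 0.0353) and day 4 (0.74, 0.00351).

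Kupffer cell and macrophage markers ran lower in HPNWT livers without any of the 12 being called. Their differences were below 0 in 12 of 12 at day 1 (median −0.22 log2) and in 11 of 12 at day 2 (−0.26), with a median of −0.06 at day 4. Their mean level was 6.923, 7.003 and 7.002 in HPNWT livers of day 1, against 7.019, 7.332 and 7.256 in EGFP livers, and Adgre1 and Timd4 lay at or below 6.16. The mean of 8 sinusoidal endothelial markers was 7.11 to 7.20 in HPNWT and 7.14 to 7.27 in EGFP livers at day 1. The part of any of these cells in the members' values was not tested.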

How the data were processed

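Liver RNA of 18 mice, 1 array per animal per the labels, was analysed in 6 groups of 3. The deposited values are log2 values, made by the authors by RMA. The submitters' processing notes name the Transcriptome Analysis Console, and its version and the genome build are not given in the sources used here. Symbols came from the authors' comparison tables, which also hold, per the file headers, the authors' own group averages on a log2 scale, a signed fold change used as a score, and p-values with a false discovery rate. Those averages span a wider scale than the values used, so folds from both are not set side by side. RMA shrinks differences of dim clusters. For members under the negative-control percentile log2 differences are printed, and linear folds only as the authors deposited them.

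All 40161 clusters with a symbol were fitted with limma 3.58.1 in R 4.3.3 (lmFit, eBayes, 6 group means, no further scaling, 2-sided, Benjamini-Hochberg over all clusters). The fit was also run on simulated data with independent noise for each cluster and array. Those data hold no shift shared by many genes within an array, so they say nothing about shifts of the whole set. Because arrays are 1 per animal, p-values rest on the spread between animals. No 2 arrays held identical values, and the number of arrays limits the precision. The members, lists and tests were chosen with earlier results of these data known. Members named are those called in any test, the 3 largest and 3 lowest differences of each day, and always Rplp0, Rplp1, Rpsa, Rpl5, Rpl11 and Rps6. From other lists they are up to 4 called genes per day and Eef1a1, Eef2, Mtor, Larp1 and Myc. Other genes named were chosen after their values were seen. Alternatives were other scalings, array weights, filters, variance models, a negative-control covariate, other clusters per symbol, single days, a replicate block and leaving out each array.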

Additional observations from a re-analysis of the deposited data

How the results depend on the processing

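The count of members called at day 1 (3) was 42 with array quality weights and 7 among clusters above the negative-control percentile, and 1 with all transcript clusters tested, with trended robust variances and with the negative-control median as covariate. It was 0 on the 6 arrays of the day. At day 2 (1 called) these settings gave 17 with weights, 2 with the filter, 0 with the covariate, 4 on the 6 arrays and 5 after repeated quantile normalization. At day 4 (0) weights gave 1. Weights also gave 5 for day 2 minus day 1, 11 for day 4 minus day 1 and 7 across days in EGFP livers, each 0 on all arrays unweighted. They ran from 0.142 (HPNWT day 4 replicate 3) to 6.508 (EGFP day 1 replicate 2). The next largest weight of day 1 was that of HPNWT replicate 2 (2.211). In these 2 arrays of day 1 the members' median deviation was the lowest (−0.147) and the highest (0.143) of the day. The cause of these changes in count was not tested. The share of all clusters called is given only for the main fit and without HPNWT day 1 or day 4 replicate 3. Counts under the other settings are therefore not read as results about the members. Leaving out 1 array gave 1 to 20 calls at day 1, 0 to 3 at day 2, 0 to 1 at day 4 and 0 to 1 for day 4 minus day 1 (the 1 without HPNWT day 1 replicate 3), with medians of 0.126 to 0.2495, 0.05025 to 0.1182 and −0.024 to 0.05658. Under the other settings all 30 recomputed medians moved by less than 1 SD of arrays. That SD was the larger of the 2 groups' (0.132 at day 1, 0.059 at day 2 and 0.099 at day 4). At day 4 it exceeds the median itself, and it is wide beside those of day 1 and day 2, so little rests on this. The day 4 median was −0.03 with weights and the day 2 median 0.04 with median centring.

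The naming rule fixed which gene was recomputed at which day, and among those differences signs turned only where the test had not been passed. At day 2 these were Rpl11 with median centring (−0.003377) and with the covariate (−2.33e-05), Rpl5 after quantile normalization (0.02742), without EGFP day 2 replicate 3 (0.03652) and without HPNWT day 2 replicate 1 (0.002115, leave-one-out range −0.0586 to 0.03652), and Rps18 (0.001689) and Rps6 (−0.03489) with the covariate. At day 4 they were Rps6 with the covariate (−0.00987), Rplp0 with weights (−0.0149) and without HPNWT day 4 replicate 3 (−0.01497, range to 0.1304), and Rpsa likewise (−0.05021, and −0.04237, range to 0.1166). Without that array signs turned in further members at day 4, Rpl3 (−0.02) among them, since 22 of 59 were then above 0 in place of 40.

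Same-numbered HPNWT and EGFP arrays did not deviate together (correlations of −0.25 to 0.111), so the numbers are not taken to pair animals. A replicate block left 1 call at day 1, 0 at day 2 and 0 at day 4. Members near or under the negative-control percentile are limited by dim signal.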
